A study of Homo sapiens with 22 samples.

Results

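The 4 genes of the human TSC22 domain family, TSC22D1, TSC22D2, TSC22D3 (which encodes GILZ, the glucocorticoid-induced leucine zipper) and TSC22D4, were followed by RNA-seq in MDA-MB-231 cells, an established mesenchymal-like triple-negative breast cancer line. They were chosen by their symbols and are 4 of the 20668 gene symbols in the expression files. All 4 passed the filter on low values, which required at least 0.5 RPKM (reads scaled to transcript length and to the mapped reads of the sample) in at least 2 of the 10 samples and kept 12713 genes. The question of the comparison was how the RNA profile of these cells depends on which ligand of the glucocorticoid receptor they are given. Every group was first kept for some days in phenol red-free medium with charcoal-stripped serum, which lowers the steroids that serum brings. The cells then received vehicle, 100 nM dexamethasone (Dex), a synthetic glucocorticoid, for 2 or 4 h, or 10 μM Compound A (CpdA), a non-steroidal ligand of the receptor, for 2 or 4 h. Each of the 5 groups had 2 samples, numbered as replicates 1 and 2. No time is labelled for vehicle, but the file headers named replicate 1 for 2 h and replicate 2 for 4 h, so that a vehicle value at each time had no replicate. The vehicle pair was the reference throughout.

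TSC22 domain proteins share a short conserved box followed by a leucine zipper, through which they pair with themselves and with each other, and most of the genes make long and short isoforms from several start sites. TSC22D1 was first found as a gene stimulated by transforming growth factor beta. TSC22D3 is a classical target of the glucocorticoid receptor, and its product GILZ binds NF-κB, AP-1 and Ras proteins and is one of the proteins through which glucocorticoids restrain inflammation. FOXO factors also act on the TSC22D3 promoter. TSC22D4 takes part in the response to osmotic stress and in the control of lipid metabolism in liver, and TSC22D2, the least studied of the family, is, like the long isoforms of its relatives, a partner of the NRBP pseudokinases and the WNK kinases that set cell volume.

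The genes lie on separate chromosomes. On GRCh37 with the GENCODE annotation, TSC22D1 is at chr13:45006279-45151283 on the minus strand, TSC22D2 at chr3:150126085-150184209 on the plus strand, TSC22D3 at chrX:106956451-107020572 on the minus strand and TSC22D4 at chr7:100060982-100076855 on the minus strand. The annotation gives 4, 1, 9 and 3 distinct starts of basic protein-coding transcripts for TSC22D1, TSC22D2, TSC22D3 and TSC22D4, while the expression files give 1 value per symbol, so that isoforms are not separated here. RefSeq promoter windows, from 250 bases before to 50 bases after a start, were at hand for 3 of the 4 genes. The upstream end of the TSC22D3 window is shown because it was the only one of their 10 windows to hold either motif searched, the FOXO motif GTAAACA. The stretch is 130 bases of chrX:107717183-107717312 on the minus strand of GRCh38.p14, with the match, read on the opposite strand and beginning 147 bases before the start, in capitals.
TSC22D3 promoter: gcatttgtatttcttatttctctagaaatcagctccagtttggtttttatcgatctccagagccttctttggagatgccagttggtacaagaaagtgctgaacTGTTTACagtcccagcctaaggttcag
The FOXO letters occurred on either strand in 3.42% of the 35116 promoter windows, and the letters GNACA and TGTNC with any 3 bases between them, a form of the glucocorticoid response element, in 0.39%. In the 5000 bases before each GENCODE start on GRCh37, the FOXO letters were found for 7 of the 9 TSC22D3 starts, 2 of the 4 TSC22D1 starts, the only TSC22D2 start and 0 of the 3 TSC22D4 starts, against 46.7% of all 55879 such windows. Neighbouring starts share most of their window, so that the 7 TSC22D3 windows held 3 distinct matches. The response element letters were found before none of the 4 genes' starts in this window, against 5.91% of all windows. Only exact matches were counted, so a response element that differs at any fixed letter would be missed. The absence here does not show that the genes lack one. These are matches of letters, and binding was not examined.

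With vehicle, TSC22D1 was the most abundant of the 4 at 55.5 ± 2.05 RPKM (SD, n = 2), followed by TSC22D4 at 21.5 ± 1.98 RPKM. TSC22D3 at 9.005 ± 1.12 RPKM and TSC22D2 at 8.62 ± 0.446 RPKM had overlapping values. In the sum of the 4 genes, 98.5 and 90.6 RPKM in the vehicle samples, TSC22D1 made up 57.8% and 59.6% and TSC22D3 9.94% and 9.07%. This order was lost with Dex and mostly kept with CpdA. After 2 h of Dex it was TSC22D3, then TSC22D1 and TSC22D4 with overlapping values, then TSC22D2. After 4 h it was TSC22D3, TSC22D4, TSC22D1 and TSC22D2, with no overlap. After CpdA for 2 h TSC22D2 and TSC22D3 again overlapped below TSC22D1 and TSC22D4, and after 4 h the order was TSC22D1, TSC22D4, TSC22D3 and TSC22D2, with no overlap.

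**Figure D1:**
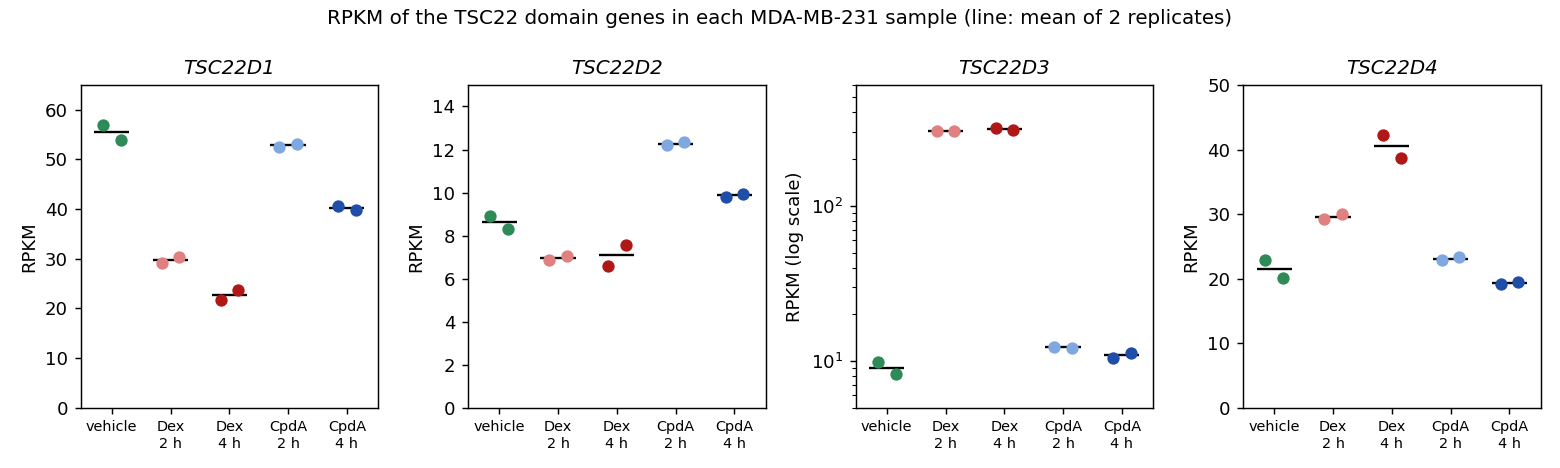
RPKM of each TSC22 domain gene (vertical axis, from 0 except for TSC22D3, which is on a log scale) in the 2 samples of each group (points), with the group mean as a line. TSC22D3 sat between 302 and 315 RPKM in the 4 Dex samples and between 8.22 and 12.4 RPKM in the other 6, while TSC22D1 stepped down and TSC22D4 up with Dex.

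All 4 genes passed the test with Dex at both times, TSC22D3 and TSC22D4 higher and TSC22D1 and TSC22D2 lower than with vehicle. By limma with an adjusted p under 0.05, 10.3% of the 12713 genes were called at 2 h (4.49% higher and 5.82% lower) and 27.4% at 4 h (9.26% higher and 18.2% lower), so that at 4 h a called gene was common and the sizes below carry more than the call. TSC22D3 measured 9.79 and 8.22 RPKM in the vehicle samples, 304 and 302 RPKM after 2 h of Dex and 315 and 305 RPKM after 4 h. The 4 Dex samples stood far above the vehicle pair and close to each other. The rise was 33.4-fold at 2 h (log2 fold change 5.06, 95% confidence interval 4.90 to 5.23, adjusted p = 1.12e-09, limma) and 34.2-fold at 4 h (5.10, interval 4.93 to 5.26, adjusted p = 1.06e-09, limma). By log2 fold change it ranked 2 at 2 h and 4 at 4 h among the genes that were higher. Between 2 and 4 h of Dex the level moved by 0.03 on the log2 scale (interval -0.13 to 0.20, adjusted p = 0.8, limma), with the 4 h samples slightly above the 2 h samples.

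TSC22D1 went the other way. It measured 56.9 and 54.0 RPKM with vehicle, 29.2 and 30.3 RPKM after 2 h of Dex, and 21.8 and 23.7 RPKM after 4 h, a series of 3 groups without overlap. It was 1.86-fold lower at 2 h (log2 fold change -0.89, interval -1.01 to -0.78, adjusted p = 3.62e-06, limma) and 2.43-fold lower at 4 h (-1.28, interval -1.39 to -1.17, adjusted p = 1.83e-07, limma). The further fall from 2 to 4 h was -0.39 on the log2 scale (adjusted p = 0.00144, limma), in a comparison that called 13.6% of all genes. By a fold change over 2 as well as the adjusted p, 2.01% of genes were called at 2 h and 3.78% at 4 h. Of the family, TSC22D3 met both at 2 h and TSC22D3 and TSC22D1 at 4 h.

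TSC22D4 rose by less than TSC22D3, and went on rising from 2 to 4 h. Its values were 22.9 and 20.1 RPKM with vehicle, 29.2 and 30.1 RPKM after 2 h of Dex and 42.3 and 38.7 RPKM after 4 h, again without overlap among the groups. The rise was 1.38-fold at 2 h (log2 fold change 0.46, adjusted p = 0.00151, limma) and 1.88-fold at 4 h (0.91, interval 0.77 to 1.06, adjusted p = 8.7e-06, limma), and the step from 2 to 4 h was 0.45 (adjusted p = 0.00263, limma). TSC22D2 moved least. It measured 8.93 and 8.30 RPKM with vehicle, 6.87 and 7.04 RPKM after 2 h of Dex and 6.57 and 7.59 RPKM after 4 h. Both Dex groups lay below the vehicle pair and overlapped each other. The fall was 1.24-fold at 2 h (log2 fold change -0.30, interval -0.46 to -0.15, adjusted p = 0.023, limma) and 1.22-fold at 4 h (-0.28, interval -0.44 to -0.13, adjusted p = 0.0151, limma). Of the calls with Dex against vehicle, these were the ones that leaving out a sample could end. At 2 h the adjusted p was 0.0969 without vehicle replicate 1, 0.152 without Dex 2 h replicate 1 and 0.0901 without Dex 2 h replicate 2. At 4 h it was 0.0894 without vehicle replicate 1 and 0.0524 (log2 fold change -0.18) without Dex 4 h replicate 1. As in any bulk sample, fewer cells that express a gene and less RNA per cell cannot be told apart.

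**Figure D2:**
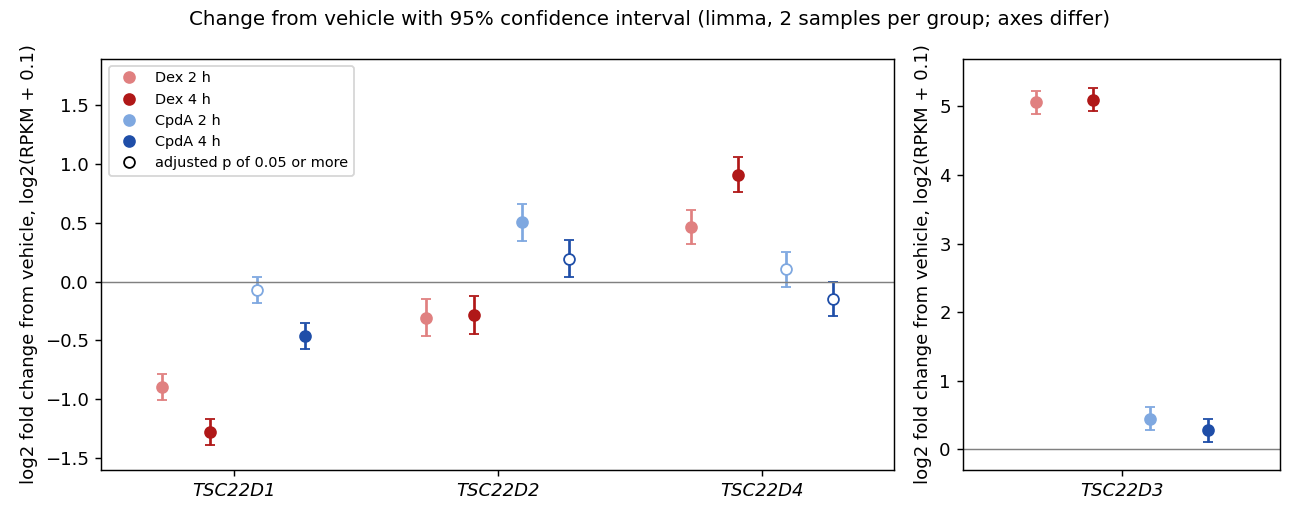
Log2 fold change from vehicle on the log2(RPKM + 0.1) scale (vertical axis, wider in the TSC22D3 panel) with its 95% confidence interval from limma, for each treatment and time, with open symbols for an adjusted p of 0.05 or more. TSC22D1 and TSC22D2 lie below 0 and TSC22D3 and TSC22D4 above 0 with Dex, and the CpdA changes run from -0.46 to 0.51.

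With CpdA no member differed from vehicle by more than 1.42-fold. Of the 4 genes, 2 passed the test at 2 h, when 6.18% of all genes were called (1.89% higher and 4.29% lower), and 2 at 4 h, when 20.5% were called (6.76% higher and 13.8% lower). TSC22D2, lower with Dex, was higher after CpdA for 2 h, at 12.2 and 12.3 RPKM against 8.93 and 8.30 RPKM with vehicle. The CpdA pair lay above every other sample of the series, and the rise was 1.42-fold (log2 fold change 0.51, interval 0.35 to 0.67, adjusted p = 0.00348, limma). At 4 h TSC22D2 was at 9.80 and 9.93 RPKM, lower than at 2 h (log2 difference -0.31, adjusted p = 0.0215, limma, with 12.4% of all genes called) and 0.19 above vehicle with an adjusted p of 0.0828 by limma. The fall from 2 to 4 h lost its call without any 1 of the 4 CpdA samples (adjusted p 0.115 to 0.135).

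TSC22D3 measured 12.4 and 12.1 RPKM after CpdA for 2 h and 10.5 and 11.3 RPKM after 4 h. Both pairs lay just above the vehicle pair, whose 9.79 and 8.22 RPKM were further apart than either. The change was 1.36-fold at 2 h (log2 fold change 0.44, interval 0.28 to 0.61, adjusted p = 0.00918, limma) and 1.21-fold at 4 h (0.27, interval 0.11 to 0.44, adjusted p = 0.0299, limma). The vehicle samples set much of this. Against vehicle replicate 2 alone, the one whose header names 4 h, the difference was 0.40 at 4 h and 0.57 at 2 h. Against replicate 1 alone, whose header names 2 h, it was 0.15 at 4 h and 0.32 at 2 h. Against the vehicle sample named for the same time, TSC22D3 was thus higher at both times. Leaving out CpdA 4 h replicate 2 gave 0.22 (adjusted p = 0.188, limma) and leaving out replicate 1 gave 0.33 (adjusted p = 0.0656, limma). The 4 h call was also lost, at an adjusted p of 0.0507 to 0.0511, without either Dex 2 h or either CpdA 2 h sample, which lend it only their estimate of the spread. At 2 h the adjusted p was 0.0883 without CpdA 2 h replicate 1 and 0.0656 without replicate 2.

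TSC22D1 did not pass the test after CpdA for 2 h, at 52.5 and 53.1 RPKM, where the difference from vehicle was -0.07 (interval -0.18 to 0.04, adjusted p = 0.488, limma). At 4 h its values of 40.7 and 39.8 RPKM lay below both other pairs, and it was 1.38-fold lower than with vehicle (log2 fold change -0.46, interval -0.57 to -0.35, adjusted p = 0.000353, limma). The step from 2 to 4 h of CpdA was -0.39 (adjusted p = 0.00244, limma). TSC22D4 measured 22.8 and 23.3 RPKM at 2 h, overlapping the vehicle pair, and 19.2 and 19.5 RPKM at 4 h, just below it. Neither passed the test against vehicle, with a difference of 0.10 (interval -0.04 to 0.25, adjusted p = 0.415, limma) at 2 h and of -0.15 (interval -0.29 to 0.001, adjusted p = 0.153, limma) at 4 h. The 2 h difference was 0.20 without vehicle replicate 1 and 0.01 without replicate 2, and the 4 h difference was -0.05 and -0.24. Against the vehicle sample whose header names the same time, TSC22D4 thus differed by 0.01 at 2 h and -0.05 at 4 h. The difference between the CpdA times was -0.25 (adjusted p = 0.0373, limma). It lost its call without any 1 of the 4 CpdA samples (adjusted p 0.153 to 0.188) and without either Dex 2 h sample (0.062 and 0.0622).

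The ligands were also compared directly. The vehicle samples did not enter these differences, but they entered the shared estimate of the spread behind the limma p-values. All 4 genes differed at both times, when 13.7% of genes at 2 h and 33.4% at 4 h were called. TSC22D3 was 24.6-fold higher with Dex than with CpdA at 2 h and 28.3-fold higher at 4 h (log2 differences 4.62 and 4.82, adjusted p = 2.54e-09 and 1.73e-09, limma). TSC22D1 was 1.77-fold lower with Dex at each time (log2 differences -0.83 at 2 h and -0.82 at 4 h, adjusted p = 4.98e-06 and 2.5e-06, limma). TSC22D2 was 1.76-fold and 1.39-fold lower with Dex (log2 differences -0.81 and -0.48, adjusted p = 5.2e-05 and 0.000709, limma). TSC22D4 was 1.28-fold higher with Dex at 2 h (log2 difference 0.36, adjusted p = 0.00551, limma), a call lost without CpdA 2 h replicate 1 (0.34, adjusted p = 0.0513, limma), and 2.08-fold higher at 4 h (1.06, adjusted p = 2.71e-06, limma). Over both times, the 4 Dex and the 4 CpdA samples did not overlap for any of the 4 genes. Arms without overlap fix the exact two-sided permutation p at the smallest that 70 splits allow, 0.0286, for each gene. Adjusted over the 4 genes it stayed at 0.0286, so this p adds nothing to the separation itself. How many of all genes separate in the same way was not counted, so the separation is not shown to be particular to the family. The samples of an arm were taken at 2 times and are not replicates of 1 condition.

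TSC22D3 was the largest part of the family sum with Dex, and TSC22D1 with vehicle and CpdA. With Dex the 4 genes summed to 369.5 and 369.7 RPKM at 2 h and to 385.9 and 375.4 RPKM at 4 h, of which TSC22D3 made up 81.3% to 82.3%. With CpdA the sum was 99.9 and 100.9 RPKM at 2 h, near the vehicle sums, and 80.2 and 80.5 RPKM at 4 h, below them, and TSC22D3 made up 12% to 14%. Without TSC22D3, the other 3 genes summed to 82.4 and 88.7 RPKM with vehicle, to 65.3 to 70.6 RPKM with Dex, to 87.6 and 88.8 RPKM after 2 h of CpdA and to 69.2 and 69.7 RPKM after 4 h of CpdA. TSC22D1 was 5.81 and 6.57 times as abundant as TSC22D3 in the vehicle samples, while TSC22D3 was 9.97 to 14.5 times as abundant as TSC22D1 in the Dex samples. RPKM is per length, so that genes can be set side by side, but the length used depends on isoforms that the files do not give.

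**Figure D3:**
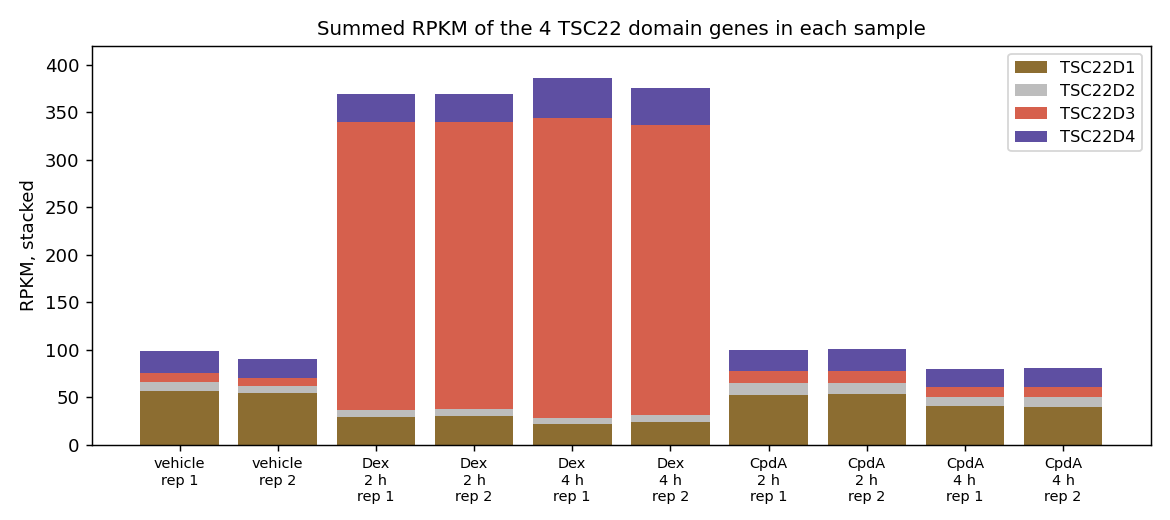
Stacked RPKM of the 4 genes in each of the 10 samples, from 0. The Dex columns stand at 369.5 to 385.9 RPKM with TSC22D3 as the bulk of each, and the vehicle and CpdA columns at 80.2 to 100.9 RPKM with TSC22D1 as the largest band.

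Genes whose log2 values followed each member most closely over the 10 samples were looked up among 11375 genes with a mean of at least 1 RPKM. The points are 5 pairs of samples that share treatments, so that Pearson's r is a description of these samples. Nearest to TSC22D3 were KLF15 (r = 0.999) and KLF9 (0.998), both Krüppel-like transcription factors, PDK4 (0.995), a kinase that inhibits pyruvate dehydrogenase, JADE1 (0.995) and FLVCR2 (0.995). KLF15 differed from vehicle by 2.87 at 2 h and 2.98 at 4 h of Dex, on the log2 scale, and by 0.21 and 0.06 with CpdA. Nearest to TSC22D1 were SOX9 (r = 0.996), a transcription factor of progenitor cells, RASSF5 (0.990), IFFO2 (0.990), CDC25A (0.989), a cell cycle phosphatase, and NR2F2 (0.987). SOX9 differed from vehicle by -0.03 at 2 h and -0.83 at 4 h of CpdA, and by -1.72 and -2.22 with Dex.

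Nearest to TSC22D2 were NR4A2 (r = 0.986), an orphan nuclear receptor, BDNF (0.984), a neurotrophin, MEF2D (0.971), MAP3K14 (0.966), the NF-κB-inducing kinase, and PPP1R15A (0.965), a regulator of the stress-induced block of translation. NR4A2 differed from vehicle by 3.59 at 2 h and 1.64 at 4 h of CpdA, and by -1.45 and -1.43 with Dex. TSC22D4 was nearest to JPH2 (r = 0.995), a junctophilin, GGT5 (0.992), SCNN1A (0.990), a subunit of the epithelial sodium channel, PMP22 (0.990) and WDR60 (0.987). JPH2 differed by 1.07 at 2 h and 2.10 at 4 h of Dex, and by 0.09 and -0.35 with CpdA.

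A list of 12 other genes known to be induced by glucocorticoids was drawn up with earlier results of these data known. Its counts are therefore a description and not a test. Of the list, 11 were higher after 2 h of Dex and all 12 after 4 h, beside 4.49% and 9.26% of all genes. The median log2 fold change of the list was 2.69 and 2.98 against -0.02 and -0.05 over all genes tested. PDK4 was highest at 4 h (7.27), followed by FKBP5 (4.98), a chaperone partner of steroid receptors, PER1 (4.45), a clock gene, and KLF9 (3.83), so that TSC22D3 at 5.10 lay between PDK4 and FKBP5. ZBTB16, a zinc finger factor, was the one not called at 2 h. With CpdA 6 were higher and 1, NFKBIA (-0.76), an inhibitor of NF-κB, was lower at 2 h, beside 1.89% and 4.29% of all genes. The median was 0.36. At 4 h 5 were higher and 1 lower, beside 6.76% and 13.8% of all genes, with a median of 0.21. The 5 were FKBP5 (0.28), PER1 (0.82), DUSP1 (1.85), a phosphatase of MAP kinases, CEBPD (0.49) and PDK4 (0.68), and the 1 was ANGPTL4 (-0.71), an inhibitor of lipoprotein lipase. At 0.27, TSC22D3 was near the median of the list with CpdA.

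Of the receptors and FOXO factors that act on TSC22D3, 6 were listed and 5 passed the filter on low values. PGR, the progesterone receptor, was at 0.00253 RPKM in its highest sample. NR3C1, the glucocorticoid receptor itself, was at 21.6 ± 1.81 RPKM (SD, n = 2) with vehicle and fell with Dex to 14.6 ± 0.0502 RPKM at 2 h and 11.01 ± 1.49 RPKM at 4 h (log2 fold changes -0.56 and -0.97, adjusted p = 0.00269 and 3.72e-05, limma). With CpdA it was at 25.1 ± 0.556 and 22.5 ± 0.621 RPKM (0.22 and 0.06, adjusted p = 0.192 and 0.68, limma). FOXO1 and FOXO3 rose with Dex, by 1.73 and 1.13 at 4 h (adjusted p = 1.13e-05 and 9.92e-06, limma), and FOXO1 also passed after 4 h of CpdA (0.48, adjusted p = 0.0294, limma). NR3C2, the mineralocorticoid receptor, fell after 4 h of Dex, at low levels (-0.92, adjusted p = 0.00894, limma), and FOXO4 was not called in any of the 4 comparisons with vehicle. Of the 5 genes, 2 were higher and 1 lower after 2 h of Dex (median 0.11), beside 4.49% and 5.82% of all genes. After 4 h 2 were higher and 2 lower (median -0.006), beside 9.26% and 18.2% of all genes. With CpdA limma called 0 at 2 h (2 at an unadjusted p under 0.05, median 0.17), beside 6.18% of all genes. At 4 h it called 1, FOXO1 (median 0), beside 20.5% of all genes.

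Partners that GILZ is known to bind were listed as 11 genes, of which 8 passed the filter. After 4 h of Dex 1 of them was higher, HRAS (0.17), and 2 were lower, JUN (-1.58) and NFKB2 (-0.44), beside 27.4% of all genes called, and the median was -0.05, the same as over all genes. At 2 h JUN and NFKB2 were lower and FOS was higher (0.26), beside 10.3% of all genes called. RELA, the p65 subunit of NF-κB, did not pass (0.01, adjusted p = 0.859 at 4 h, limma). With CpdA FOS, a partner of JUN in AP-1, was 2.75 higher at 2 h and 2.36 higher at 4 h. At 4 h SMAD2 was also higher (0.20) and JUN lower (-0.33). The medians were 0.03 and -0.08, and 6.18% and 20.5% of all genes were called at these times.

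The 11 tested genes of the NRBP, WNK and SLC12 module moved little. After 4 h of Dex 3 were higher, OXSR1 (0.49) and STK39 (0.42), the kinases that WNKs activate, and NRBP1 (0.12), and the median was 0.01. By limma 0 were lower, and 1 was lower at an unadjusted p under 0.05. Among all genes 9.26% were called higher and 18.2% lower, 27.4% in either direction. At 2 h OXSR1 was higher (0.28) and SLC12A4, a potassium and chloride cotransporter, lower (-0.18), beside 10.3% of all genes called. With CpdA limma called 0 of the 11 at 2 h (2 at an unadjusted p under 0.05, median -0.01). At 4 h WNK4 (0.50) and OXSR1 (0.18) were higher and SLC12A4 (-0.17) lower (median 0.06). The shares called over all genes were 6.18% and 20.5%. Of 9 genes of TGF-beta signalling, the pathway by which TSC22D1 was found, 1 was higher and 4 were lower after 4 h of Dex (median -0.11), beside 9.26% and 18.2% of all genes. SMAD7 (-1.66), the inhibitor that the pathway induces, SMAD3 (-1.21), TGFB3 (-0.66) and TGFBR1 (-0.50) fell, and TGFBR2 (0.75) rose. At 2 h SMAD7 and SMAD3 were lower and TGFBR2 higher (median -0.07), beside 5.82% lower and 4.49% higher among all genes. With CpdA 3 of the 9 were lower at 2 h (median -0.11), beside 4.29% of all genes. At 4 h 4 were lower, SMAD7 (-0.92), TGFBR2 (-0.50), SMAD3 (-0.39) and TGFBR1 (-0.28), and TGFB2 was higher (0.26). These stood beside 13.8% lower and 6.76% higher among all genes, and the median was -0.21. TGFBR2 thus had opposite signs with the ligands (Dex above CpdA at 4 h, log2 difference 1.25, adjusted p = 6.62e-08, limma).

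**Figure D4:**
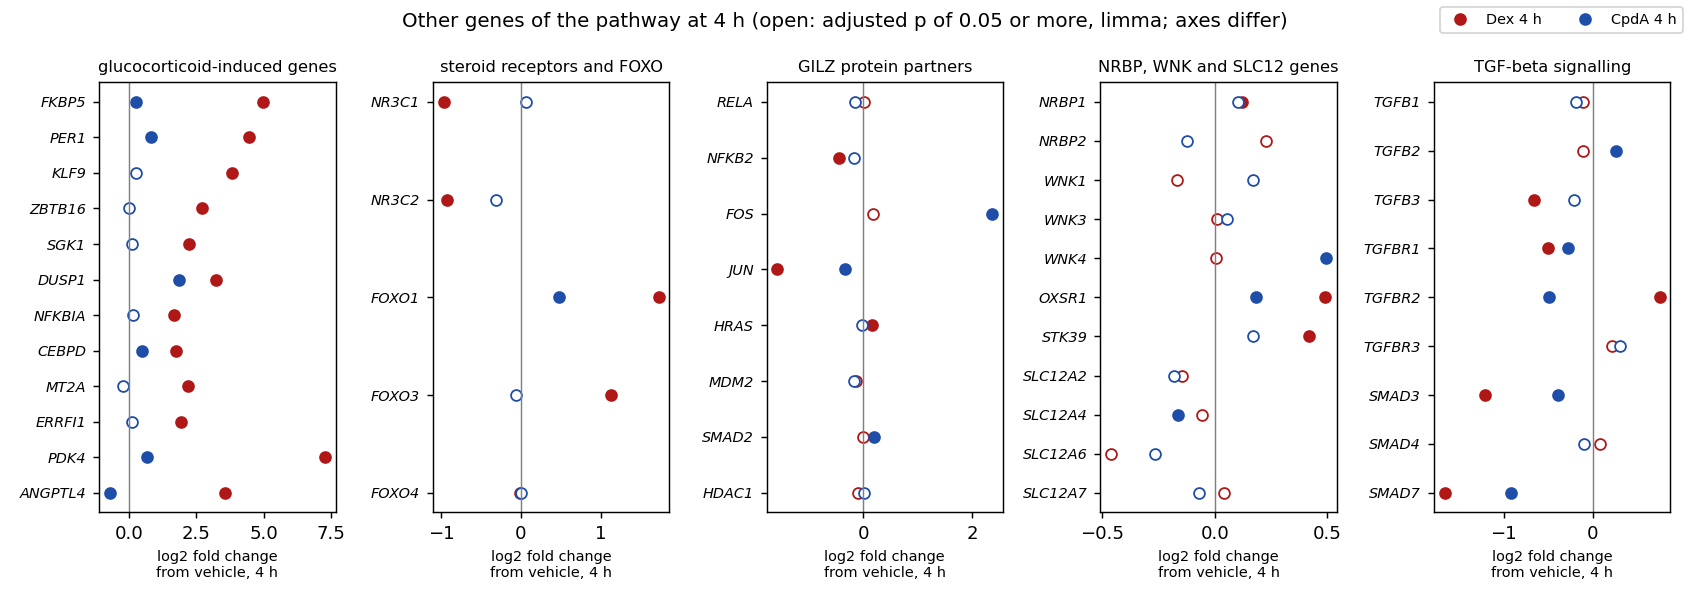
Log2 fold change from vehicle at 4 h (horizontal axis, with a scale of its own in each panel) for the tested genes of the 5 lists, with Dex in red and CpdA in blue and open symbols for an adjusted p of 0.05 or more by limma. All 12 glucocorticoid-induced genes lie above 0 with Dex, from 1.67 to 7.27, and the other 4 lists lie on both sides of 0. The lists were chosen with earlier results of these data known.

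The labelled line was checked by its markers. All 6 mesenchymal markers were present, summing to 2275 to 2477 RPKM in every sample, and 4 of the 7 luminal markers (ESR1, PGR, FOXA1 and CDH1) were under 0.5 RPKM in all samples, with GATA3, EPCAM and ERBB2 making up most of a sum of 30.5 to 37.3 RPKM. Of the 3 leukocyte markers measured, PTPRC reached at most 0.0630 RPKM and CD3E 0.0114 RPKM, while CD14 was at 2.17 to 2.89 RPKM over the 10 samples. The antisense gene TSC22D1-AS1 was at 0.163 to 0.447 RPKM and C7orf61, next to TSC22D4, at 0.319 to 0.551 RPKM, far below the genes they adjoin. Read totals are not in the files, but the spacing of low RPKM values put the samples at 1 to 1.21 times the depth of vehicle replicate 1, with both vehicle samples below every treated sample. The part of this depth gap in the results was not tested. Duplicates had Spearman correlations over genes of 0.995 to 0.999, against 0.973 to 0.995 for samples of different groups.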

How the data were processed

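RNA was sequenced from 10 samples of MDA-MB-231 cells as 50 bp single-end reads. The authors aligned reads with TopHat2 2.0.13, obtained transcript abundances from Partek Genomics Suite 6.6 at its defaults, and deposited RPKM for 20668 symbols per sample (hg19 in the submitters' processing notes). How transcripts were combined into symbols and whether counting used strand are not given in the sources used here. The 12 ChIP samples of the series were not used here.

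Values were transformed to log2(RPKM + 0.1), a scale that understates changes of low genes, and were not normalized further. Genes with at least 0.5 RPKM in at least 2 samples were kept (12713). The 5 groups entered 1 linear model (limma 3.58.1, R 4.3.3, eBayes with an abundance trend), with Benjamini-Hochberg adjustment over all genes kept and calls at an adjusted p under 0.05. The groups share 1 estimate of the spread, since 2 against 2 samples cannot reach an exact permutation p below 0.333. RPKM are not counts, depth is known only in relative terms, and no interval from counts was given. p-values measure the spread between samples that the labels call replicates. For vehicle these are 2 samples whose headers name 2 h and 4 h, and their spread enters the estimate used in every limma test. Replicate numbers were not used to pair the samples. Same-numbered deviations correlated at 0.0544 on average over the 10 pairs of groups (range -0.0568 to 0.198, with 3 over 0.1). A low average does not show that the samples were unpaired. With a replicate block in the model, limma called 1454 genes for Dex at 2 h against 1311 without it, and 3763 against 3487 at 4 h.

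The 4 members and all gene lists were chosen with earlier results of these data known. Named genes were the members, at most 4 genes per list with the largest change at 4 h among those called, NR3C1, and the 5 genes nearest to each member. Other genes of a list were named after their values were seen, to complete a count. Some genes of the lists are not reported here and were left out of the counts. Positions and motifs came from GENCODE 44 on GRCh37 and from RefSeq promoters on GRCh38.p14 (TSC22D2 is not among those used here).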

Additional observations from a re-analysis of the deposited data

Results flagged for a closer look

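Differences between the 2 h and 4 h samples of the same ligand passed the test for 3 of the 4 genes. TSC22D1 was lower at 4 h than at 2 h with Dex (-0.387 on the log2 scale) and by nearly the same amount with CpdA (-0.392). TSC22D4 was higher at 4 h with Dex (0.448) and lower at 4 h with CpdA (-0.251). TSC22D2 was lower at 4 h with CpdA (-0.312), and its difference between the Dex times was 0.022. These were called by limma with adjusted p = 0.00144, 0.00244, 0.00263, 0.0373 and 0.0215, in the order given, and each rests on 2 against 2 samples. With 13.6% of all genes called between the Dex times and 12.4% between the CpdA times, a call of this kind was not rare. The vehicle samples, whose headers name 2 h and then 4 h, also differed. TSC22D1 was at 56.9 and 54.0 RPKM in them, TSC22D2 at 8.93 and 8.30 and TSC22D4 at 22.9 and 20.1. The part of a drift shared with vehicle in the steps above was not tested.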

How the results depend on the processing

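The 4 genes in 8 comparisons gave 32 log2 differences, refitted under 10 other settings and with each of the 10 samples left out. Of the 320 values from other settings 301 kept their direction and side of the threshold, as did 289 of the 320 with a sample left out. The 1 that turned was TSC22D2 between the Dex times, at 0.022 with all samples and -0.08 without Dex 4 h replicate 2, called in neither (range 0.124 to -0.08 over the samples left out). Every call on TSC22D1, the TSC22D3 calls with Dex and the TSC22D4 calls with Dex against vehicle were kept throughout. Changes of call, all by limma, were as follows. With unmoderated variances calls were lost for TSC22D2 with Dex at 2 h (-0.305, adjusted p = 0.0888) and 4 h (-0.283, 0.0519), TSC22D3 with CpdA at 2 h (0.443, 0.077) and 4 h (0.274, 0.107), and between the CpdA times for TSC22D2 (-0.312, 0.0755) and TSC22D4 (-0.251, 0.114). With no filter on low values, where more genes are tested, calls were lost for TSC22D2 with Dex at 2 h (-0.305, adjusted p = 0.056), TSC22D3 with CpdA at 4 h (0.274, 0.0788), and between the CpdA times for TSC22D2 (-0.312, 0.0518) and TSC22D4 (-0.251, 0.0868). Fitting only the 4 samples of a comparison lost TSC22D2 with Dex at 4 h (-0.283, adjusted p = 0.119) and TSC22D3 with CpdA at 2 h (0.443, 0.0587) and 4 h (0.274, 0.0924), and gained TSC22D3 between the CpdA times (-0.169, 0.0411). Without the abundance trend TSC22D3 with CpdA at 4 h (0.274, adjusted p = 0.059) and TSC22D4 between the CpdA times (-0.251, 0.0704) were lost. Median scaling lost the latter (-0.22, adjusted p = 0.0694) and gained TSC22D2 with CpdA at 4 h (0.26, 0.0197), as did quantile normalization (0.249, 0.022). The cause of these changes was not tested further.

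With 1 sample left out, where a group of 1 is assumed to vary like the others, calls changed for 10 of the differences. Their ranges were -0.357 to -0.252 for TSC22D2 with Dex at 2 h, -0.385 to -0.181 at 4 h, 0.318 to 0.569 for TSC22D3 with CpdA at 2 h, 0.149 to 0.399 at 4 h, 0.142 to 0.247 for TSC22D2 and -0.24 to -0.053 for TSC22D4 with CpdA at 4 h, 0.338 to 0.381 for TSC22D4 between the ligands at 2 h, and between the CpdA times -0.322 to -0.303 for TSC22D2, -0.223 to -0.116 for TSC22D3 and -0.267 to -0.236 for TSC22D4. The replicate block changed no call on the 4 genes (TSC22D3 with Dex at 4 h stayed at 5.097, and TSC22D3 with CpdA at 4 h had an adjusted p of 0.0312).

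Over all settings the number of genes called in the whole table was 766 (without Dex 2 h replicate 1) to 1710 for Dex at 2 h, 1775 (only the 4 samples) to 4772 at 4 h, 216 (without CpdA 2 h replicate 1) to 1446 for CpdA at 2 h, 1190 to 3637 at 4 h, 959 to 2513 and 2759 to 5183 between the ligands at 2 and 4 h, 592 to 3440 between the Dex times and 261 to 3500 between the CpdA times. Of the genes called with Dex at 4 h 33.8% were higher, 44.8% after quantile normalization and 49.9% after median scaling. For CpdA the shares were 30.5%, 39.5% and 44.6% at 2 h and 33%, 46.8% and 55.8% at 4 h. Between 2 and 4 h they were 33.5%, 47.7% and 53.3% for Dex and 42%, 49.5% and 54.6% for CpdA. No scaling moved the median of all genes by over 0.1.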
